A study of Graphilbum sp. with 6 samples.

Results

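Cytosolic ribosomal proteins were examined in hyphae of Graphilbum sp., an ascomycete of the order Ophiostomatales, by RNA sequencing. The members were the assembled transcripts whose best database hit lay in Sporothrix, Grosmannia, Ophiostoma or Esteya and whose description named a 40S or 60S ribosomal protein, or a ribosomal protein with an L or S number, leaving out descriptions with the word mitochondrial. They numbered 54 of 26694 features in the table, and of 4613 features with a best hit in these 4 genera, called the class here. In the nematode group, 3 libraries came from mycelium exposed for 24 h to roughly 300 individuals of the pine wilt nematode Bursaphelenchus xylophilus, a worm that feeds on fungal hyphae. In the control group, 3 libraries came from mycelium labelled with the same time and no nematodes. Both groups had grown for 5 days at 28 °C on potato dextrose agar, and hyphae were washed in phosphate-buffered saline. All 6 libraries carry one protocol description, so the groups follow the titles and the treatment label. Replicates are called biological in the series text without saying what made them separate, so the p-values measure the spread between these libraries, which may be technical.

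Ribosomes consist of a small (40S) and a large (60S) subunit, each built from ribosomal RNA and many proteins. In growing fungi their messages are among the most abundant of the cell, and they are usually regulated as one group, since subunits need their proteins in matched amounts. Synthesis falls in starved or stressed yeast cells, which makes the group a common readout of growth.

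The labels call the material hyphae. Features of the class held 28.7%, 39.4% and 38.4% of TPM (a length-scaled relative abundance) in nematode replicates 1 to 3, against 68.5%, 69.4% and 70.0% in control replicates 1 to 3. Because of this difference, class values were scaled by the median, over class features, of each library's ratio to the mean, with class totals averaging 1e+06. Values on this scale are called rescaled TPM. In bulk RNA, fewer fungal cells, less RNA per cell and more RNA from other organisms cannot be told apart. Descriptions matching nematode keywords such as vitellogenin numbered 0 of 26694. Best hits do not name the organism that made a transcript, and the presence of nematode RNA was not tested. Control replicate 3 stood apart within its group: the median distance of a class feature from its group mean was 0.24 on the log2 scale in that library, against 0.11 and 0.14 in control replicates 1 and 2 and 0.08 to 0.10 in the nematode libraries. The log2 fold changes of many members depended on this library, and values without it follow beside the results they move.

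The members did not form a uniform list. By name, 22 belonged to the 60S subunit or carried an L number and 21 to the 40S subunit or carried an S number. Another 10 had 37S or 50S names, which are used for bacterial and organellar ribosomes. The label of cytosolic proteins thus holds by name for at most 43 of the 54. Some of these, such as L16 (TRINITY_DN8830_c1_g1) and an S14 feature (TRINITY_DN5552_c0_g1), carried a number without the words 40S or 60S. The last member was LOC1, which in budding yeast is an assembly and export factor of the 60S subunit and not a part of the mature ribosome. Of the members, 8 had no protein number, and the other 46 bore 41 different labels. A label kept its letters, so L3 and L3e count apart, while 60S and 50S features of the same number, as for L13, share a label. Best hits lay in Sporothrix for 27 members, in Grosmannia for 21 and in Ophiostoma for 6. The genus Esteya had 1 feature in the whole class and 0 members. No member was described as S3, S6, L10 or L11.

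Ribosomal protein messages were abundant, as the plot of levels by library shows. The members had a median of 1061 rescaled TPM over the 6 libraries, against 72.0 for the 4568 class features tested. Of the 100 class features of highest mean, 23 were members, and 29 members reached 1000 rescaled TPM, a level that 152 class features reached. All 54 members were listed above 0 in every library. The 54 together made up 9.66%, 9.12% and 9.68% of class TPM in nematode replicates 1 to 3, against 10.2%, 10.3% and 6.27% in control replicates 1 to 3. The means were 9.48% ± 0.319 with nematodes and 8.93% ± 2.31 in controls (SD, n = 3 each). The control libraries thus lay on both sides of the nematode libraries, and the difference of 0.554 percentage points became -0.778 without control replicate 3.

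**Figure D1:**
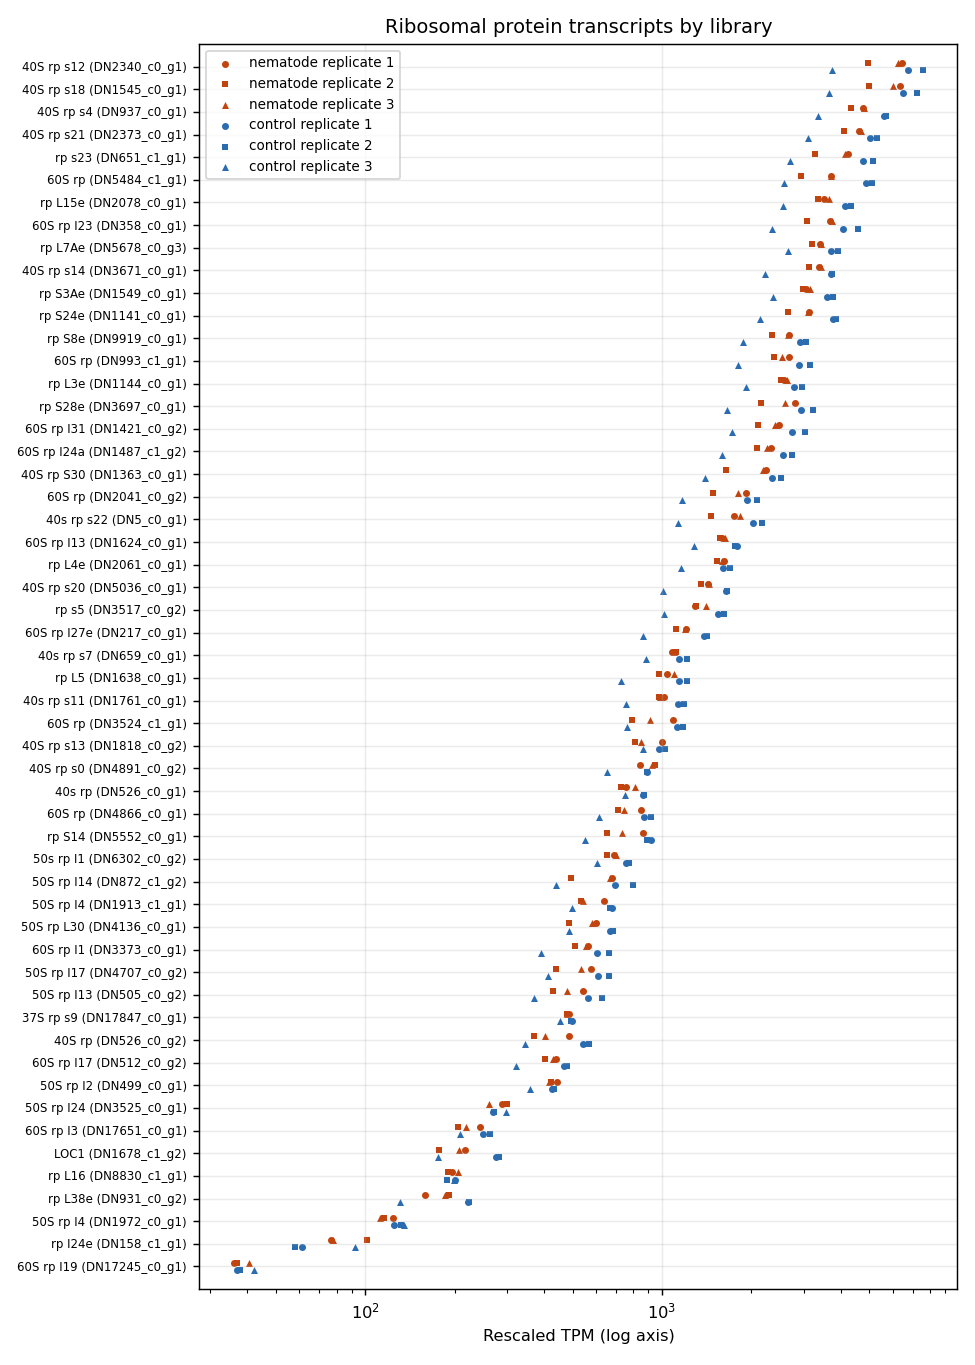
Rescaled TPM (log axis) of each of the 54 ribosomal protein features in 3 nematode libraries (orange) and 3 control libraries (blue), ordered by mean level. For most features the nematode libraries lie between control replicate 3 on the left and control replicates 1 and 2 on the right.

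The most abundant members were 5 proteins of the small subunit. S12 (TRINITY_DN2340_c0_g1), a protein of the 40S head, had 6438, 4935 and 6264 rescaled TPM in nematode replicates 1 to 3, against 6741, 7581 and 3739 in control replicates 1 to 3. S18 (TRINITY_DN1545_c0_g1), which contacts the large subunit from the 40S head, had 6326, 5002 and 6027 with nematodes, against 6491, 7233 and 3664 in controls. In both, the nematode values lay inside the range of the controls, since control replicates 1 and 2 were above all of them and control replicate 3 below all of them. S4 (TRINITY_DN937_c0_g1) averaged 4627 ± 259.8 with nematodes and 4878 ± 1325 in controls (SD, n = 3 each). S21 (TRINITY_DN2373_c0_g1) averaged 4468 ± 303.1 and 4475 ± 1194 in the same order. S23 (TRINITY_DN651_c1_g1), a protein of the decoding centre that bears on the accuracy of translation, had 4221, 3278 and 4147 with nematodes, against 4777, 5130 and 2697 in controls. The log2 fold changes of these 5 ran from -0.07 to 0.05 and none passed the test; S12 stood at 0.02 ± 0.30 SE (adjusted p = 0.990, limma). Without control replicate 3 the 5 ran from -0.35 for S23 to -0.20 for S21, and none passed.

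Among 60S proteins, L3 is a large protein close to the site of peptide bond formation. The feature described as L3e (TRINITY_DN1144_c0_g1) had 2586, 2511 and 2647 rescaled TPM with nematodes, against 2778, 2969 and 1927 in controls. A further feature with the name L3 (TRINITY_DN17651_c0_g1) had 243.3, 204.9 and 219.0 with nematodes, against 249.6, 263.2 and 208.7 in controls. In the abundant one control replicate 3 was lowest, and in the other nematode replicate 2. L4e (TRINITY_DN2061_c0_g1), of a family that lines the exit tunnel, averaged 1582 ± 43.0 with nematodes and 1486 ± 286.7 in controls (SD, n = 3 each). L5 (TRINITY_DN1638_c0_g1), which binds 5S ribosomal RNA, averaged 1040 ± 61.7 and 1029 ± 262.8 in the same order. S14 was also named by a pair of features: TRINITY_DN3671_c0_g1 averaged 3316 ± 155.1 with nematodes and 3224 ± 868.6 in controls, and TRINITY_DN5552_c0_g1 averaged 750.2 ± 106.5 and 784.7 ± 205.2 (SD, n = 3 each). None of these groups was separated, since control replicate 3 was below the nematode libraries and control replicates 1 and 2 above most of them, with the less abundant L3 feature as the exception. L3e and L5 stood at log2 fold changes of 0.04 and 0.05, and at -0.15 and -0.18 without control replicate 3.

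Of the 5 lowest members, 4 did not share that order of the libraries, and L38e did. L19 (TRINITY_DN17245_c0_g1), which takes part in a bridge between the subunits, had 36.0, 36.8 and 40.5 rescaled TPM with nematodes, against 37.1, 37.7 and 42.2 in controls. The mean of S12 was 155 times that of L19. L24e (TRINITY_DN158_c1_g1) had 76.4, 101.4 and 77.6 with nematodes, against 61.4, 57.7 and 92.3 in controls. Its family holds a 60S protein and, in yeast, an assembly factor that this protein replaces. Control replicate 3 was the highest control for L19 and L24e, and the groups overlapped in both. A 50S-type L4 (TRINITY_DN1972_c0_g1) had 123.9, 115.6 and 111.9 with nematodes, against 124.6, 131.6 and 135.5 in controls. It was the only member of 54 whose groups did not overlap, which 18.3% of class features tested showed. L38e (TRINITY_DN931_c0_g2) averaged 178.4 ± 17.3 with nematodes and 192.2 ± 53.2 in controls, and L16 (TRINITY_DN8830_c1_g1) averaged 197.6 ± 7.90 and 195.7 ± 6.76 (SD, n = 3 each).

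The study set nematode against control libraries, and on the rescaled scale no ribosomal protein passed the test in either direction. Of 54 members, all tested, 0 were higher and 0 lower at an adjusted p of 0.05 (limma across 4568 class features). In the class, 0.657% of features were called, 0.613% as higher and 0.0438% as lower. At an unadjusted p under 0.05 the count of members was also 0, against 10.8% of class features. The smallest unadjusted p of a member was 0.132. Their median log2 fold change was -0.02, against -0.03 over the class, and 33 members were below 0 and 21 above, where 55.2% of class features were below 0. The members ranged from -0.26 to 0.29, with quartiles of -0.07 and 0.02. The quartiles of the class were -0.16 and 0.12. The sign of the median depended on scaling, since it was 0.12 after scaling by class totals and 0.11 after quantile normalization, still with 0 members called.

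The replicates limit what this comparison can show, and the interval gives that limit. The 95% interval of every member's log2 fold change lay within 1 of 0, that is within a 2-fold change in either direction, as did 85.7% of intervals in the class. The lowest lower bound was -0.92 and the highest upper bound 0.78, and the median interval reached 0.49 to either side. With 1 library left out, 52 of 54 intervals lay within 1 of 0 without nematode replicate 2, 53 without nematode replicate 1, nematode replicate 3 or control replicate 1, and 54 without control replicate 2 or 3. Changes smaller than about 0.49 on the log2 scale could not be resolved for a typical member. The standard errors ran from 0.09 for L16 to 0.30 for S12.

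**Figure D2:**
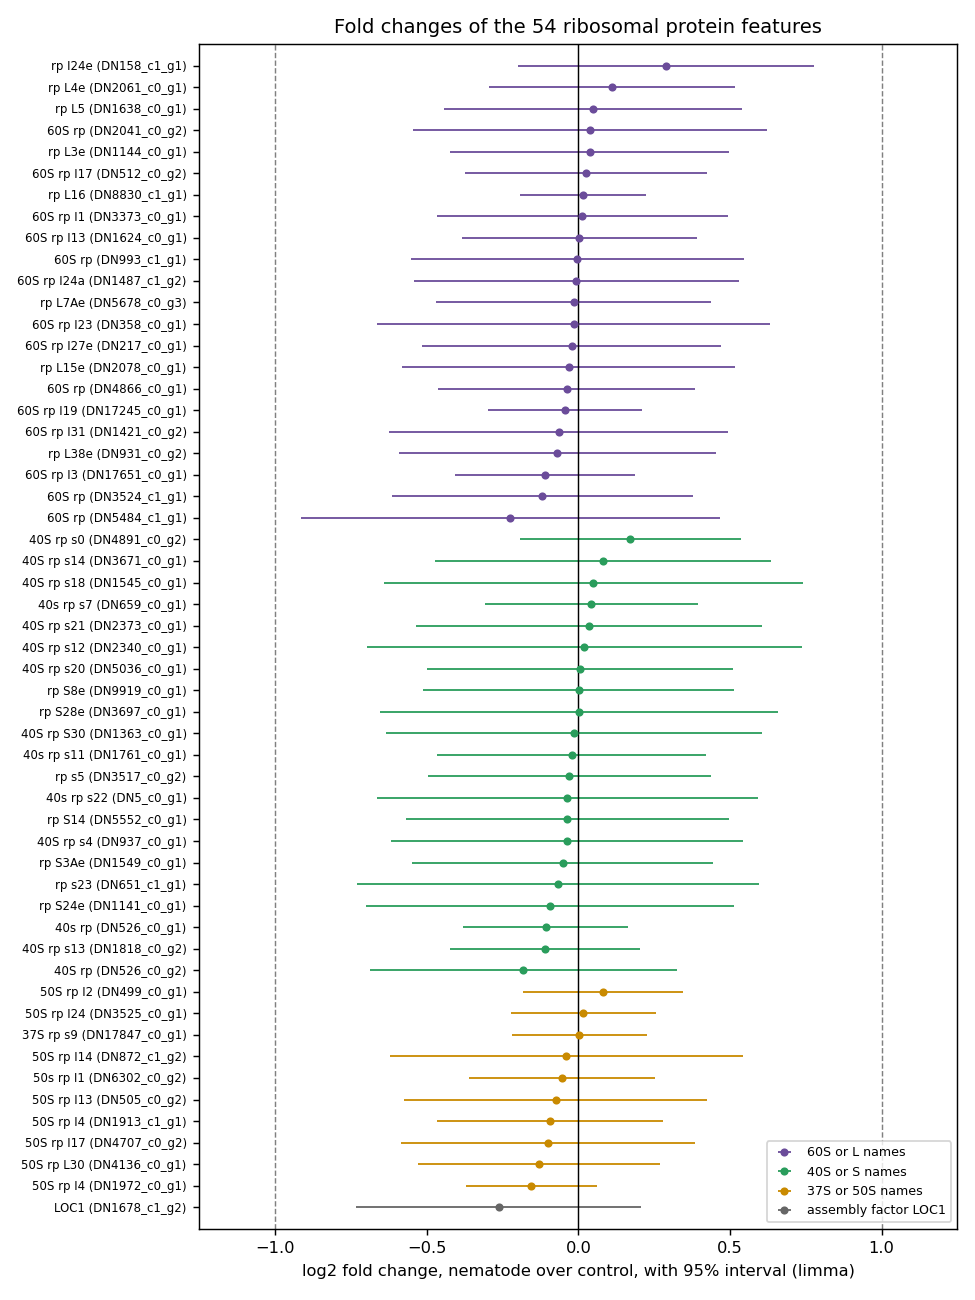
log2 fold change (nematode over control, rescaled TPM) of each member with its 95% limma interval, grouped by the kind of name, with dashed lines at -1 and 1. Every interval crosses 0 and lies within the dashed lines.

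The largest log2 fold changes were small. L24e was highest at 0.29 ± 0.21 SE (adjusted p = 0.696, limma). S0 (TRINITY_DN4891_c0_g2), needed in yeast for maturation of the small subunit, came next with 0.17 ± 0.15 SE (adjusted p = 0.741, limma): 843.0, 950.2 and 926.0 rescaled TPM with nematodes, against 888.5, 892.7 and 655.1 in controls. After these came L4e (0.11), the 50S-type L2 (TRINITY_DN499_c0_g1; 0.08) and the abundant S14 feature (0.08). These positions rested on control replicate 3: without it S0 stood at 0.03, L4e at -0.05, the 50S-type L2 at 0.00 and S14 at -0.16. Another 60S member, L24A (TRINITY_DN1487_c1_g2), was far more abundant than L24e, with a mean of 2263 rescaled TPM. L24A stood at -0.01 with all libraries and at -0.24 without control replicate 3. At the other end, LOC1 (TRINITY_DN1678_c1_g2) had 216.4, 177.2 and 206.5 with nematodes, against 276.6, 281.3 and 176.1 in controls, and its log2 difference was -0.26 ± 0.20 SE (adjusted p = 0.718, limma). An unnumbered 60S protein (TRINITY_DN5484_c1_g1) stood at -0.22, an unnumbered 40S protein (TRINITY_DN526_c0_g2) at -0.18, the 50S-type L4 at -0.16 and the 50S-type L30 (TRINITY_DN4136_c0_g1) at -0.13. Without control replicate 3 the unnumbered 40S protein stood at -0.40, the 50S-type L30 at -0.28 and the 50S-type L4 at -0.12, and none of these 3 passed the test. A further unnumbered 40S feature, TRINITY_DN526_c0_g1, carries the name of the same assembly cluster as TRINITY_DN526_c0_g2, so reads may have been split between them.

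The subunits had similar medians. The median log2 fold change was -0.01 for the 22 features with 60S or L names, -0.02 for the 21 with 40S or S names and -0.06 for the 10 with 37S or 50S names. Without control replicate 3 these medians were -0.21, -0.24 and -0.20. Summed over features, 40S messages exceeded 60S messages 1.53, 1.47 and 1.53 times in nematode replicates 1 to 3, against 1.44 to 1.51 times in the 3 control replicates. The ratio averaged 1.51 ± 0.0328 with nematodes and 1.48 ± 0.0400 in controls (SD, n = 3 each). It hardly varied while the sums themselves did: the 40S sum was 54167, 46307 and 53521 rescaled TPM with nematodes, against 59617, 63188 and 36176 in controls. These sums depend on which proteins the best hits placed in the class and are no count of ribosomal subunits. The order of the 54 levels was almost the same in both groups (Spearman rho of mean nematode on mean control levels 0.998 across the 54 features, which share the libraries of each mean).

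The members varied together from library to library, and the largest move was inside the control group. The median deviation of a member from its own mean over the 6 libraries was 0.06, -0.10 and 0.03 on the log2 scale in nematode replicates 1 to 3, against 0.19, 0.26 and -0.41 in control replicates 1 to 3. Over the class the same median was -0.01 or closer to 0 in each library, which the scaling on class features sets by construction. The nematode libraries lay close together, between control replicate 3 below and control replicates 1 and 2 above. The median coefficient of variation of a member was 6.92% among nematode libraries and 24.8% among controls, but 3.46% between control replicates 1 and 2.

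**Figure D3:**
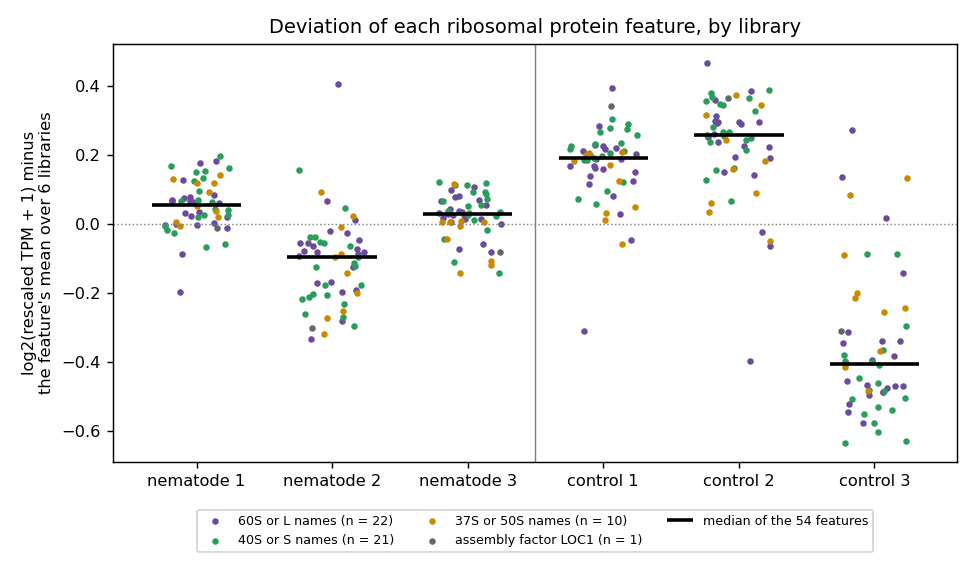
Deviation of each ribosomal protein feature from its mean over 6 libraries, on the log2 scale, with nematode libraries on the left and controls on the right. Points are features coloured by the kind of name, and bars are medians over the 54. The bar stands at -0.41 in control replicate 3 and at 0.19 and 0.26 in control replicates 1 and 2.

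Control replicate 3 was the lowest of the 6 libraries for 46 of 54 members, and for 28.2% of class features. Control replicate 2 was the highest for 43 members and for 22.4% of class features. For 43 members the 3 nematode libraries all lay between control replicate 3 below and control replicates 1 and 2 above, an order found in 12.7% of class features. The centred profile of a member over the 6 libraries correlated with the median profile of the other members at a median Pearson r of 0.97, and 40 of 54 (74.1%) reached 0.9. Of the 4514 class features tested that were no members, 433 (9.59%) reached 0.9 with the members' median profile. These correlations rest on 6 libraries, share 1 library far from the rest and are given as a description only.

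The drop in control replicate 3 was larger for the more abundant members. All 29 members at or above 1000 rescaled TPM were lowest there, with a median of 0.601 times the mean of control replicates 1 and 2, and 17 of the 25 below 1000 were lowest there, with a median of 0.736 times. S12 stood at 0.522 times, S18 at 0.534 and the unnumbered 60S protein TRINITY_DN5484_c1_g1 at 0.518. L24e stood at 1.55 times, L19 at 1.13, the less abundant 50S-type L4 at 1.06 and L16 at 1.02. Across the 54 members, the log2 level and the log2 difference of control replicate 3 from the others correlated at a Pearson r of -0.75 (Spearman rho -0.68), whereas across the 4568 class features tested r was -0.06 (rho -0.16). Features share the same libraries, and the level includes the libraries of the ratio, so these values describe and test nothing. They were not computed apart for each kind of name. The 123 other class features at or above 1000 rescaled TPM had a median of 0.811 times, with 48 of them lowest in control replicate 3. What set that library apart was not tested.

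**Figure D4:**
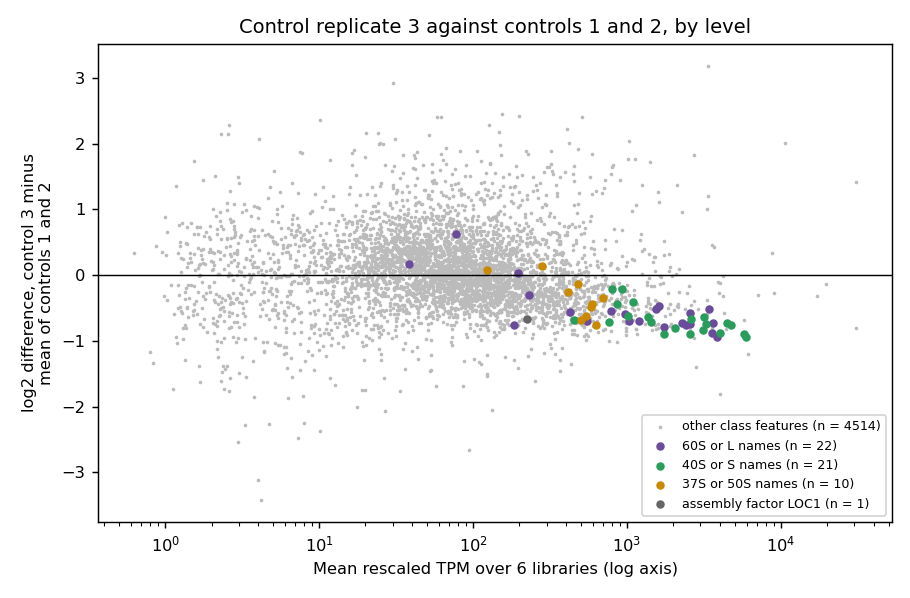
log2 difference of control replicate 3 from the mean of control replicates 1 and 2 (vertical axis) against mean rescaled TPM over 6 libraries (log axis), for 54 ribosomal protein features in colour and 4514 other class features in grey. Abundant ribosomal protein features lie below 0, with S12 at 0.522 times, and the grey points centre near 0 with a wide spread.

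Leaving out control replicate 3 changed the calls. Without it, 1 member was higher and 2 lower with nematodes (adjusted p under 0.05, limma across 4552 class features), where 7.67% of class features were higher and 6.15% lower. In total 13.8% of class features were then called, so the share among the members (3 of 54) was below that of the class. LOC1 stood at a log2 fold change of -0.48 (adjusted p = 0.0309), the unnumbered 60S protein TRINITY_DN5484_c1_g1 -0.53 (adjusted p = 0.04997, just under the threshold) and L24e 0.50 (adjusted p = 0.0449). The more abundant L24A went the other way and did not pass (-0.24, adjusted p = 0.146). At an unadjusted p under 0.05 there were 19 members, against 35% of class features. Among all members, 48 of 54 were then below 0, against 49.5% of class features, with a median of -0.23 against 0.00 over the class. Of the 21 members above 0 with all libraries, 16 were below 0 without this library, and of the 33 below 0, 1 was above. The control group held 2 libraries in this fit.

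In TPM as the authors deposited it, 53 of 54 members were lower with nematodes and 0 higher (adjusted p under 0.05, limma across all 21817 features tested). Over all features 25.5% were lower and 61.4% higher. Among class features, whose share of TPM was smaller with nematodes, 78.8% were lower. With the class fitted alone on the same values, 53 members were again lower, where 83.4% of class features passed, 82.8% as lower and 0.583% as higher. The median log2 fold change was -0.85 for the members and -0.82 for the class. The smallest p was that of S13 (TRINITY_DN1818_c0_g2), with 292.1, 353.2 and 337.7 TPM with nematodes, against 654.8, 658.0 and 577.9 TPM in controls (log2 fold change -0.94 ± 0.16 SE, adjusted p = 0.00109). The groups of S13, picked for its small p, did not overlap on this scale. The share of class features without overlap on it is not given here. The rescaled values of S13, which overlapped, averaged 886.3 ± 99.4 with nematodes and 954.7 ± 81.7 in controls (SD, n = 3 each). The less abundant features named 50S L4 and 60S L3 followed, with log2 fold changes of -0.98 and -0.94 (adjusted p = 0.00151 and 0.00184). L24e was the member that did not pass (log2 fold change -0.53, adjusted p = 0.140). Scaling the whole table by TMM, a trimmed mean of ratios, left 0 members called. On deposited TPM, 22 were lower without nematode replicate 1, 29 without control replicate 1 and 30 without control replicate 2. The shares of all features called in these fits are not given here, so the counts do not set the members apart.

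The nematode libraries also held ribosomal protein messages from outside the class. The same words matched 234 further features with best hits in other genera or none named, which summed to 59803, 49556 and 49195 TPM in nematode replicates 1 to 3, against 15248, 15044 and 9585 TPM in control replicates 1 to 3. Of the TPM of all features so named, the 54 members took 31.7%, 42.0% and 43.0% with nematodes, against 82.1%, 82.6% and 82.1% in controls. The groups did not overlap, and the 3 controls were nearly equal in this share although control replicate 3 was low in both sums. Of the 234, 74 had at least 1 TPM in every nematode library and under 1 TPM in every control, and 0 of the members did. Members could hardly meet this rule, since even L19, the lowest, had 24.8, 24.3 and 28.2 TPM in control replicates 1 to 3. The share of all features with this pattern is not given here, so the counts are not particular to ribosomal proteins.

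**Figure D5:**
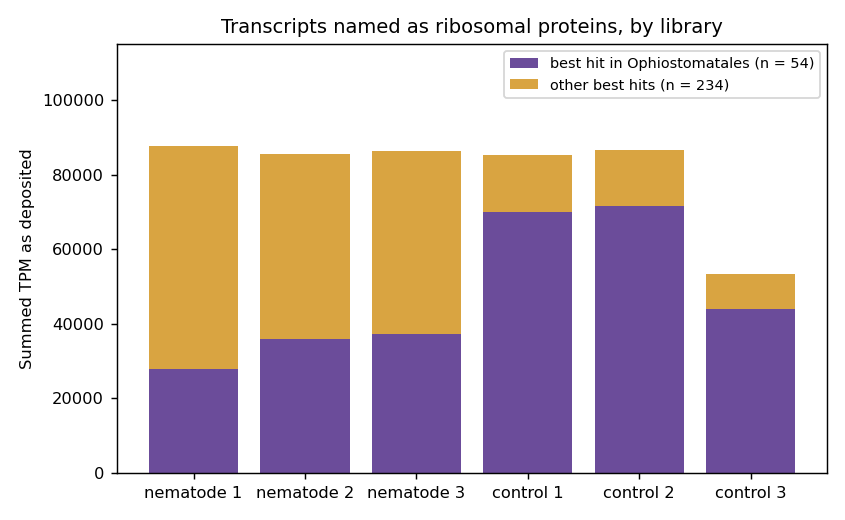
Summed TPM as deposited of features described as ribosomal proteins, by library, with the 54 members in purple and the 234 features with other best hits in yellow. The members take 31.7% to 43.0% of the bar in nematode libraries and 82.1% to 82.6% in controls.

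Many protein names occurred both inside and outside the class. With a final e ignored, the numbered ones among the 43 features of 40S and 60S type bore 34 distinct protein names, and 20 of these also had a feature found in the nematode libraries alone. Of the 234 features outside the class, 31.6% had that pattern, and a name could have several such features, as S5 had 7 outside the class. The share of all features is not given here, so the count does not set these names apart. S24, for example, had a member at 917.1, 1156 and 1229.9 TPM with nematodes, against 2516, 2494 and 1436 TPM in controls. The S24 feature outside the class had 1715, 1509 and 1278 TPM with nematodes, against 0, 0 and 0.34 TPM in controls. For S23 the member had 1234, 1429 and 1648 TPM with nematodes, against 3194, 3306 and 1805 TPM in controls, and the other features summed to 2529, 1671 and 1818 TPM with nematodes, against 21.2, 15.1 and 1.67 TPM in controls. Not all of the 20 were abundant outside the class. The L16 features there summed to 2.34, 1.53 and 4.19 TPM in nematode replicates 1 to 3, and those of S14 to 2.83, 7.37 and 6.59 TPM. For S21 the other features stayed at 0 in all 3 nematode libraries. Best hits give sequence similarity and not the organism that made a transcript.

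A further 10 ribosomal protein features with hits outside the class had at least 100 TPM in every control, a limit chosen after the values were seen. They were named S3, S13, S15, S17, S27e, L10-A, L12, L20, L25 and L29. Divided by the factors of the class, all 10 were lowest in control replicate 3 and highest in control replicate 2, as most members were. Their ratio of control replicate 3 to the other controls had a median of 0.640 and ran from 0.485 for L29 to 0.846 for L10-A. Their log2 differences, nematode minus control, had a median of 0.05 and ran from -0.18 to 0.13. TRINITY_DN5484_c1_g3, the L10-A feature, carries the assembly cluster name of the unnumbered 60S member TRINITY_DN5484_c1_g1.

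Other genes of translation in the class were read in the same fit, by keyword lists. The list of growth regulators matched 0 features. Further lists held 52 ribosome biogenesis features, 28 translation initiation factors and 22 tRNA synthetases. They also held 9 elongation and termination factors, 8 mitochondrial ribosomal proteins and 6 subunits of RNA polymerase I or III. Of all these, 0 were called in either direction, where only 0.657% of class features were. Their median log2 fold changes were -0.10, -0.05, -0.13, -0.09, -0.15 and -0.04 in that order, beside -0.02 for the members. Without control replicate 3 they were -0.20, -0.13, -0.19, -0.18, -0.24 and -0.17, beside -0.23 for the members, so the order of lists and members depended on that library. In that fit 12 of 127 related features passed (9.45%), 1 higher and 11 lower, where 13.8% of class features did. With all libraries and an unadjusted p under 0.05 there were 1, 2, 0, 1, 0 and 0 features, against 10.8% of class features. In the biogenesis list the smallest p was that of RRP42, a subunit of the exosome that trims ribosomal RNA precursors (TRINITY_DN6539_c0_g2), with 401.2, 345.7 and 365.5 rescaled TPM with nematodes, against 477.8, 519.6 and 418.6 in controls (log2 fold change -0.34, adjusted p = 0.356, limma). Its groups did not overlap, which 18.3% of class features tested showed, and it had been picked for its small p. TSR1, a factor of small subunit assembly (TRINITY_DN4442_c2_g4), stood at -0.32 (adjusted p = 0.489) and at -0.17 without control replicate 3.

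Among the factors that work on the ribosome, the eIF4-gamma/eIF5/eIF2-epsilon domain protein (TRINITY_DN2477_c0_g2) had 187.4, 195.3 and 208.3 rescaled TPM with nematodes, against 234.2, 230.5 and 227.7 in controls (log2 fold change -0.23, adjusted p = 0.429). The GTP-binding subunit of the release factor, which helps end translation (TRINITY_DN6335_c0_g1), had 180.0, 189.4 and 210.7 with nematodes, against 252.4, 221.6 and 226.0 in controls (-0.27, adjusted p = 0.432). Nematode libraries were below all controls in both, which had been picked for small p. In either direction, 18.3% of class features tested had groups that did not overlap. A scarce initiation factor feature (TRINITY_DN3639_c0_g2) stood at -1.33 (adjusted p = 0.456) on levels of at most 7.36 rescaled TPM. Mitochondrial ribosomal protein S4 (TRINITY_DN3132_c0_g1) had 246.6, 270.8 and 248.8 rescaled TPM with nematodes, against 263.7, 261.9 and 452.0 in controls. Its log2 fold change of -0.30 became -0.04 without control replicate 3, the library in which it was high. An unnumbered mitochondrial ribosomal protein (TRINITY_DN200_c1_g1) stood at -0.14, and the RNA polymerase III subunits RPC2 (TRINITY_DN8989_c0_g1) and RPC3 (TRINITY_DN2620_c0_g1) at -0.20 and -0.09. Without control replicate 3 these 3 were at -0.23, -0.27 and -0.18. A translation elongation factor (TRINITY_DN440_c0_g1) stood at -0.10 and arginyl-tRNA synthetase (TRINITY_DN2893_c0_g1) at -0.16, and with all libraries the adjusted p of mitochondrial S4 and these 5 was 0.594 to 0.808 (limma). Glutaminyl-tRNA synthetase (TRINITY_DN3559_c0_g1) stood at -0.26 (adjusted p = 0.561), and it and RRP42 passed without control replicate 3 (-0.38 and -0.42, adjusted p = 0.0312 and 0.0328). P0, the base of the stalk that recruits translation factors to the 60S subunit (TRINITY_DN3416_c0_g4), had 2452, 2309 and 2460 with nematodes, against 2527, 2714 and 1609 in controls. The nascent polypeptide-associated complex protein (TRINITY_DN839_c0_g2), which binds new chains at the tunnel exit, had 649.1, 552.5 and 656.1 with nematodes, against 771.8, 797.4 and 506.7 in controls. The log2 fold change of P0 was 0.11, and -0.11 without control replicate 3. That of the nascent chain protein was -0.14, and -0.34 without that library, and neither passed in either fit. Both shared the order of the members, with control replicate 3 at 0.614 and 0.646 times the other controls, whereas that ratio had a median of 0.829 in ribosome biogenesis and 0.885 in initiation factors. The lists were not tested against each other.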

How the data were processed

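RNA sequencing of 3 nematode and 3 control libraries was available as 1 table of TPM that the authors deposited. The sources used here do not name an assembler, aligner or quantification tool, and feature names have the form of the Trinity assembler, per the file headers and names. TPM keeps no read depth, so no counting interval is given. The 2 columns of the authors' group means were not used. Class features were divided by the library's median ratio over class features listed above 0 in all libraries, and the class totals set to average 1e+06. Values were fitted as log2(rescaled TPM + 1) in R 4.3.3 with limma 3.58.1 (eBayes with a trend; its robust setting used statmod 1.5.0), keeping features that reached 1 rescaled TPM in 3 or more of 6 libraries. The contrast was nematode minus control, Benjamini-Hochberg adjusted over all tested features at a threshold of 0.05. Because of the pseudocount, a log2 fold change understates changes of low features. A fit on deposited TPM over all features used the same settings. Scripts were tested on simulated data. An exact two-sided permutation of 3 against 3 cannot go below 0.1.

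The members and keyword lists were chosen with earlier results of these data known. The initiation factor list was narrowed to translation by name after the descriptions were read. Named features were the 5 largest and 5 smallest log2 fold changes among members averaging at least 10 rescaled TPM, the 5 highest and 5 lowest members, the 4 of smallest p, S3, S6, S14, L3, L5, L10 and L11 where present, the 3 of smallest p in deposited TPM and up to 2 features per keyword list. Others were named after their values were seen. Alternatives were other pseudocounts (0.1 and 5 TPM), filters, scalings, eBayes settings, omitted libraries and a replicate block.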

Additional observations from a re-analysis of the deposited data

How the results depend on the processing

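The count of 0 members called held under pseudocounts of 0.1 and 5 TPM, no filter or one of 5, TMM, class-total, non-member and quantile scaling within the class, both eBayes settings and the narrower member lists. With each library left out in turn it ranged from 0 to 3, with or without the tested features kept, and the related translation features called from 0 to 12 of 127 (1 higher, 11 lower), both highest without control replicate 3. On undivided class TPM, where 82.8% of class features were lower and 0.583% higher, 53 members and 125 of 127 related features were lower, the members' median log2 fold change was -0.85 and 0 intervals lay within 1 of 0 (52 to 54 with a library left out of the rescaled fit). There S12, S18, S21 and S14 turned to log2 fold changes of -0.82, -0.79, -0.80 and -0.76, L3e, L4e and L5 to -0.80, -0.73 and -0.79, S0, 50S-type L2, L16 and P0 to -0.66, -0.75, -0.81 and -0.72. The members' median was 0.12 after class-total and 0.11 after quantile scaling, and ranged from -0.23 to 0.09 with a library left out. Of the 53 called lower in deposited TPM over all features, 0 were called after TMM and 44 after quantile normalization, and 22 to 53 with a library left out (22 without nematode replicate 1, 29 and 30 without control replicates 1 and 2). With the replicate block 0 members were called and 53 intervals lay within 1 of 0 (52 called in deposited TPM). The shares of all features called in these alternative fits of deposited TPM are not given here. Same-numbered libraries did not deviate together (r of 0.15, -0.43 and -0.28 over 4568 features), and pairs of unlike number ran from -0.23 to 0.41. The numbers were not taken as pairs, although these values cannot tell whether libraries were prepared in pairs.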
